A study of Mus musculus with 2 samples.

Results

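The chemokine genes examined here are Ccl8, Ccl20, Ccl2, Ccl5, Cxcl1, Cxcl5, Cxcl9, Cxcl10, Cxcl13 and Cxcl12, measured in the ventral prostate of ARR2PB-miR32 transgenic mice and of wild-type mice. They were found by matching the accession of every non-control probe to these 10 symbols, and all 10 had a probe, 11 probes in all, out of 41174 probes on the array. Of the 10 genes 9 were detected, among 13902 detected genes. Accessions without a matched gene symbol are counted among these 13902, each as a gene of its own. The 10 genes were selected on earlier results of these same arrays, their transgenic over wild-type ratios among them, so those ratios are given as a description.

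The transgenic pool was RNA of 6 mice with the ARR2PB-miR32 transgene, and the wild-type pool was RNA of 6 mice without it, all of the FVB/N strain (spelled FBV/N in part of the labels) and 6 months old. ARR2PB is a composite probasin promoter, which is active in androgen-responsive prostate epithelium, so the microRNA is driven from epithelial cells and not from the leukocytes or stroma that also contribute RNA to a whole gland. Both pools were hybridised together to each of 2 two-colour Agilent arrays with the dyes swapped, the transgenic pool in Cy3 on array 1 and in Cy5 on array 2. The arrays are technical replicates of 1 pool per genotype, so there was no test, and the SD given with a log2 ratio is that of the 2 arrays (n = 2) and leaves out the spread between mice.

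Chemokines are small secreted proteins that bind seven-helix receptors on leukocytes and steer their movement along gradients. The CC and CXC classes are named for the spacing of their first cysteines. Inflammatory members are induced through NF-kappaB and interferon signals at sites of infection or injury, while homeostatic members such as Cxcl12 and Cxcl13 are made constantly by stromal cells and place cells within tissues. In the prostate they are made by epithelium, stroma and resident or recruited leukocytes, and a whole-gland array does not tell these sources apart.

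The transgene carries miR-32, whose mature 5p strand is shown with its seed (bases 2 to 8) in capitals, since the seed is the part that pairs with target messenger RNAs. The sequence is RefSeq's, on the GRCm38.p6 assembly (chr4:56895272-56895293, - strand).
mmu-miR-32-5p: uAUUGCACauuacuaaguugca

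Promoters of 5 of the chemokines are printed because these genes span the range of the ratios below, from Ccl8, the lowest, through Ccl20, Cxcl1 and Cxcl9, to Cxcl10, which was not lower. Each is the 250 bases before the start of the RefSeq gene, read along the gene's strand, on GRCm38.p6. Capitals mark matches on either strand to 4 motifs: the kappaB consensus, the core of the interferon-stimulated response element (GAAANNGAA), the gamma-activated site (TTCNNNGAA) and a TATA box (TATAAA).
Ccl8 (chr11:82114935-82115184, + strand): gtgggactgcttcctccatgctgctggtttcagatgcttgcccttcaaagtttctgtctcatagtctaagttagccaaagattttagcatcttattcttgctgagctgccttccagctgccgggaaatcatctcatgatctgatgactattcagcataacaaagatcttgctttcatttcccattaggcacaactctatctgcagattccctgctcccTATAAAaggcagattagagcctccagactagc
Ccl20 (chr1:83116516-83116765, + strand): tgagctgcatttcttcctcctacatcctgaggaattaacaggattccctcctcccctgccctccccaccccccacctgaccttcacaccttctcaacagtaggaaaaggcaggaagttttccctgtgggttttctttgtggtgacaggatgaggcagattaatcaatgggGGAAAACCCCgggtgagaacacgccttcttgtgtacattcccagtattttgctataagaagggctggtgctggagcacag
Cxcl1 (chr5:90890995-90891244, + strand): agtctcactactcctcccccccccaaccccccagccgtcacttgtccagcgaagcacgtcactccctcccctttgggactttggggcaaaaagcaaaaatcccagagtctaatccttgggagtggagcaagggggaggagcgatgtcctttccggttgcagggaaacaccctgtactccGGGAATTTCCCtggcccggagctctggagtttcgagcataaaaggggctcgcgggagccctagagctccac
Cxcl9 (chr5:92328080-92328329, - strand): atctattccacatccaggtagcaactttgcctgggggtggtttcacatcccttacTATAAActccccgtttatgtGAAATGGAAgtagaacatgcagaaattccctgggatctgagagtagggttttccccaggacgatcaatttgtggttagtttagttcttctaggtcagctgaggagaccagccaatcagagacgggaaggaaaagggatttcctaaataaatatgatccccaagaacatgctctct
Cxcl10 (chr5:92348890-92349139, - strand): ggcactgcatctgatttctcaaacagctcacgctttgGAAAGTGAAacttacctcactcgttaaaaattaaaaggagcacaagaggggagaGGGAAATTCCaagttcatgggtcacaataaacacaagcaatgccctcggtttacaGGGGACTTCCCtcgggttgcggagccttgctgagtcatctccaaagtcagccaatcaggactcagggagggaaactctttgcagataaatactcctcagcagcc

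Windows were present for 7 of the 10 genes, and Ccl2, Ccl5 and Cxcl5 are named only. The kappaB consensus was found in 3 of the 7 windows, those of Ccl20, Cxcl1 and Cxcl10, and in 7.25% of all 32851 windows of that length. In Cxcl1 the match GGGAATTTCC began 71 bases before the start and overlapped a reverse-strand match shifted by 1 base. In Ccl20 the match GGAAAACCCC lay on the reverse strand, 80 bases before the start. The Cxcl10 window held GGGAAATTCC 159 bases before the start and overlapping matches at 104 and 103 bases, together with GAAAGTGAA, a match to the core of the interferon-stimulated response element, at 213 bases. Cxcl9 held another match to that core, GAAATGGAA, at 175 bases, and the core occurred in 7.13% of all windows. The gamma-activated site occurred in 7.02% of all windows and in 0 of the 7. TATAAA, found in 12.4% of all windows, stood 32 bases before the start in Ccl8 and 46 bases in Cxcl13, and 195 bases in Cxcl9. These are letter matches in short windows, and no binding was measured.

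Of the 10 chemokines, 5 were lower in the transgenic pool (Ccl8, Ccl20, Cxcl1, Cxcl13 and Ccl5) and 0 were higher, while Ccl2, Cxcl9, Cxcl12 and Cxcl10 did not pass and Cxcl5 was not detected. A gene was called where the mean ratio of the arrays reached 2-fold and each array alone gave 1.5-fold or more the same way. Of all 13902 detected genes, 3.53% were lower and 1.09% were higher on these terms. Since a gene counted as detected where at least 1 pool was well above background on both arrays, Ccl20, Cxcl1 and Cxcl9 entered through the wild-type pool alone. The other 6 detected members, Ccl8, Ccl2, Ccl5, Cxcl10, Cxcl13 and Cxcl12, were well above background throughout. The 9 detected members had a median log2 ratio of -1.43, and the median of all detected genes was 0.01. In the plot of levels, both transgenic values lay under both wild-type values for 8 of the 9 members, which was also the case for 24.3% of all detected genes.

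**Figure D1:**
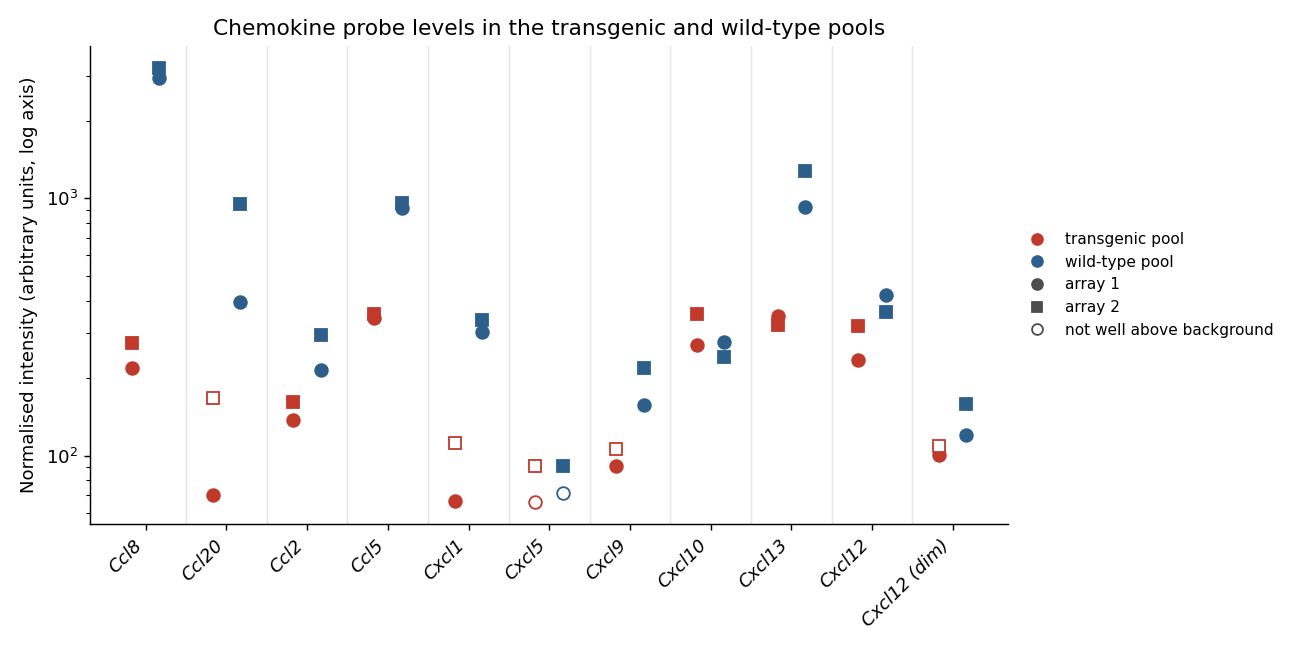
Normalised intensity (arbitrary units, log axis) of each chemokine probe in the transgenic pool (red, left) and the wild-type pool (blue, right) on array 1 (circles) and array 2 (squares). Open symbols were not well above background. Ccl8 shows the widest gap, with 218 and 274 in the transgenic pool against 2936 and 3225 in the wild-type pool, and the values of the pools overlap for Cxcl10. Heights of different probes are not comparable.

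Levels below are normalised intensities in arbitrary units, array 1 before array 2, and they include the 50 units added in background correction, which draws the ratios of dim probes towards 0. A level is compared between the pools for 1 probe, or as a sum over the genes of a list, and never between probes. Such a sum is led by the brightest genes of its list. In these bulk samples, fewer cells of a type and less RNA per cell cannot be told apart.

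The monocyte-attracting CC chemokines differed in size. Ccl8, a monocyte chemoattractant that in the mouse signals through Ccr8, had levels of 218 and 274 in the transgenic pool, against 2936 and 3225 in the wild-type pool. Its log2 ratios were -3.75 and -3.56, a mean of -3.65 ± 0.13, or 12.6-fold lower. It ranked 24th from the lowest of the 13902 detected genes. Ccl2, the main ligand of Ccr2 on monocytes, stood at 137 and 162 in the transgenic pool, against 214 and 294 in the wild-type pool. The pools did not overlap, but the gap was much narrower than that of Ccl8, with log2 ratios of -0.65 and -0.86 and a mean of -0.75 ± 0.15.

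The Ccl2 probe was printed as 10 spots on each array, which gives the spread within an array. Spot ratios ran between -1.28 and 0.25 on array 1 around a median of -0.71 (SD of 0.55 over the 10 spots), and between -1.43 and -0.16 on array 2 around a median of -0.86 (SD 0.33). The spots thus crossed 0 on array 1 and stayed below it on array 2, and the other 10 probes have 1 spot per array and no such check. Ccl2 passed the rule with Feature Extraction's processed signals (-1.32), in the authors' deposited series table (-1.39) and without the offset (-1.06).

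Ccl2 and Ccl8 bound a run of CC chemokine genes on chromosome 11, with Ccl7, Ccl11 and Ccl12 between them. Ccl12, a murine monocyte chemoattractant, was lower at -1.12 ± 0.03, with its transgenic signal well above background on array 1 only. Ccl7 did not pass at -0.64 ± 0.20, nor did the eosinophil attractant Ccl11 at -0.36 ± 0.59. The genes of the run thus did not share a common ratio, with means between -0.36 for Ccl11 and -3.65 for Ccl8. These genes are close paralogs, and no probe sequence was used here to see whether a probe can bind a neighbour's transcript.

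The receptor Ccr2 had 1 detected probe, well above background in the wild-type pool on both arrays and in the transgenic pool on array 1 only. Ccr2 was lower at -1.26 ± 0.42 by its detected probe, whose levels were 93.3 and 138 in the transgenic pool, against 274 and 270 in the wild-type pool. On array 2 alone its log2 ratio was -0.97, and its undetected probe gave -0.0037. Ccr8, the receptor of mouse Ccl8, was not detected in either pool.

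Ccl5, a chemoattractant for T cells, monocytes and eosinophils that T cells themselves make, was lower with close values on the arrays. It had levels of 344 and 354 in the transgenic pool, against 918 and 964 in the wild-type pool. Its log2 ratios were -1.42 and -1.45, a mean of -1.43 ± 0.02, or 2.70-fold lower. Its receptors Ccr1 and Ccr3 were not detected. Of the related genes, Ccl4, a CC chemokine of activated macrophages and T cells, was lower at -1.04 ± 0.27, having been detected through the wild-type pool alone. When each array was centred on its median in place of loess, the Ccl5 ratio was -0.46 on array 1 and -2.33 on array 2, so that it no longer passed although the mean of -1.39 was similar.

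Cxcl13 and Ccl20, which draw cells into lymphoid tissue and mucosa, were both lower. Cxcl13, which draws Cxcr5-bearing B cells into follicles, had levels of 350 and 322 in the transgenic pool, against 924 and 1278 in the wild-type pool. Its mean log2 ratio was -1.70 ± 0.42, or 3.24-fold lower, with -1.40 on array 1 and -1.99 on array 2. Under median centring these were -0.44 and -2.89, and the call was lost. Cxcr5 itself was lower at -1.52 ± 0.83, with -2.11 on array 1 and -0.93 on array 2 alone, and its transgenic signal was well above background on 1 array.

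Ccl20, which epithelial cells secrete to attract Ccr6-bearing dendritic cells, B cells and T helper cells, had levels of 70.4 and 167 in the transgenic pool, against 396 and 950 in the wild-type pool. Both transgenic values lay below both wild-type values, and the log2 ratios were -2.49 and -2.51, a mean of -2.50 ± 0.011. The transgenic signal was well above background on array 1 but not on array 2, and the arrays lay further apart under some other settings. The ratios were -3.81 on array 1 and -3.13 on array 2 without the offset (mean -3.47), -5.81 and -3.73 with Feature Extraction's processed signals (mean -4.77), and -2.04 and -3.33 under median centring. Ccr6, its receptor, was lower at -1.74 ± 0.28, with levels of 86.9 and 131 in the transgenic pool, against 333 and 381 in the wild-type pool.

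Other genes of this circuit from the fixed lists moved unevenly. Ccl19, a ligand of Ccr7 that guides T cells and dendritic cells, was lower at -1.88 ± 0.60 by the probe used and stood at -1.01 by its other probe. Ccl21a, the other Ccr7 ligand, was at -0.30 ± 0.36 and did not pass. On neither array did Ccr7 clear the background in transgenic RNA, and it did not pass at -0.49 ± 0.33. Ltb, a lymphotoxin subunit that induces Cxcl13 in lymphoid stroma, was lower at -2.20 ± 0.19, with levels of 336 and 418 in the transgenic pool, against 1695 and 1750 in the wild-type pool. Ccl28, a mucosal epithelial chemokine for plasma cells, was lower at -1.70 ± 0.13. Its transgenic signal was well above background on array 1 only. The Ccl28 mean was -2.91 without the offset and -3.76 with Feature Extraction's processed signals.

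Among the neutrophil attractants that act through Cxcr2, Cxcl1 alone passed the rule. Cxcl1 had levels of 66.7 and 112 in the transgenic pool, against 302 and 335 in the wild-type pool. Its log2 ratios were -2.18 and -1.58, a mean of -1.88 ± 0.42, and the transgenic signal was well above background on array 1 only. Without the offset the mean was -3.07, and with Feature Extraction's processed signals -4.45. Cxcl5, a further Cxcr2 ligand, was well above background only in the wild-type pool on array 2 and was not detected, with levels of 66.1 and 91.2 in the transgenic pool, against 71.2 and 91.2 in the wild-type pool. No difference in Cxcl5 could be measured at this signal.

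Cxcl5 and Cxcl1 enclose Ppbp, Pf4, Cxcl3 and Cxcl15 on chromosome 5. Of these, Pf4, a platelet chemokine, was detected and stood at -0.75 ± 0.07, while Ppbp, Cxcl3 and Cxcl15 were not detected. Cxcl2, also a ligand of Cxcr2, did not pass at -0.81 ± 0.52. The receptor Cxcr2 was not detected by either of its probes. Among neutrophil markers 2 of 9 on the array were detected, S100a9 at -2.40 ± 0.14 (lower) and S100a8 at -1.05 ± 0.73 (not called). For S100a9 and S100a8 the transgenic signal was well above background on array 1 only.

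The interferon-inducible pair Cxcl9 and Cxcl10, both ligands of Cxcr3 on T helper and NK cells, did not move alike, and neither passed. Cxcl9 had levels of 91.4 and 106 in the transgenic pool, against 158 and 219 in the wild-type pool, with log2 ratios of -0.79 and -1.04 and a mean of -0.91 ± 0.18. Its transgenic signal was well above background on array 1 only. It was past the rule under median centring (-1.03), without the offset (-1.61) and with Feature Extraction's processed signals (-2.46). Cxcl10 had levels of 270 and 355 in the transgenic pool, against 277 and 242 in the wild-type pool. These overlap, and its log2 ratios of -0.04 and 0.56 averaged 0.26 ± 0.42, so its direction differed between the arrays. The genes are near neighbours on chromosome 5, with Art3 as the 1 protein-coding gene that starts between them, and the difference between their ratios was not tested.

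Cxcr3, the shared receptor, did not pass at -0.81 ± 0.18. Ifng, the cytokine that induces this pair, was not detected by either probe. Irf1, an interferon-induced transcription factor, was lower at -1.06 ± 0.09, while its dimmer probe gave -0.26. Under median centring Irf1 was at 0.14 on array 1 and -2.06 on array 2, so its call was lost and the arrays differed in direction. Irf7 stood at 0.15 ± 0.20 and Irf9 at -0.04 ± 0.32, and neither passed.

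Cxcl12, the homeostatic stromal ligand of Cxcr4, differed little. Its brighter probe had levels of 235 and 318 in the transgenic pool, against 421 and 362 in the wild-type pool, with log2 ratios of -0.84 and -0.19 and a mean of -0.51 ± 0.46. Its dimmer probe, designed to another transcript accession, had levels of 101 and 109 in the transgenic pool, against 121 and 159 in the wild-type pool, and a mean of -0.40 ± 0.20. Both probes lay below 0 on both arrays, as did 27.3% of all detected genes by the probe used, and neither passed. The SD of the brighter probe is nearly as large as its mean.

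Cxcr4 gave -0.81 ± 1.18, with -1.64 on array 1 and 0.02 on array 2, so its direction was not settled. The scavenging receptor Ackr3, which also binds Cxcl12, was at 0.35 ± 0.49. Ackr4, which takes up Ccl19 and Ccl21a, was at -0.27 ± 0.14. Ackr1 and Ackr2, which bind many of the inflammatory chemokines, were not detected.

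**Figure D2:**
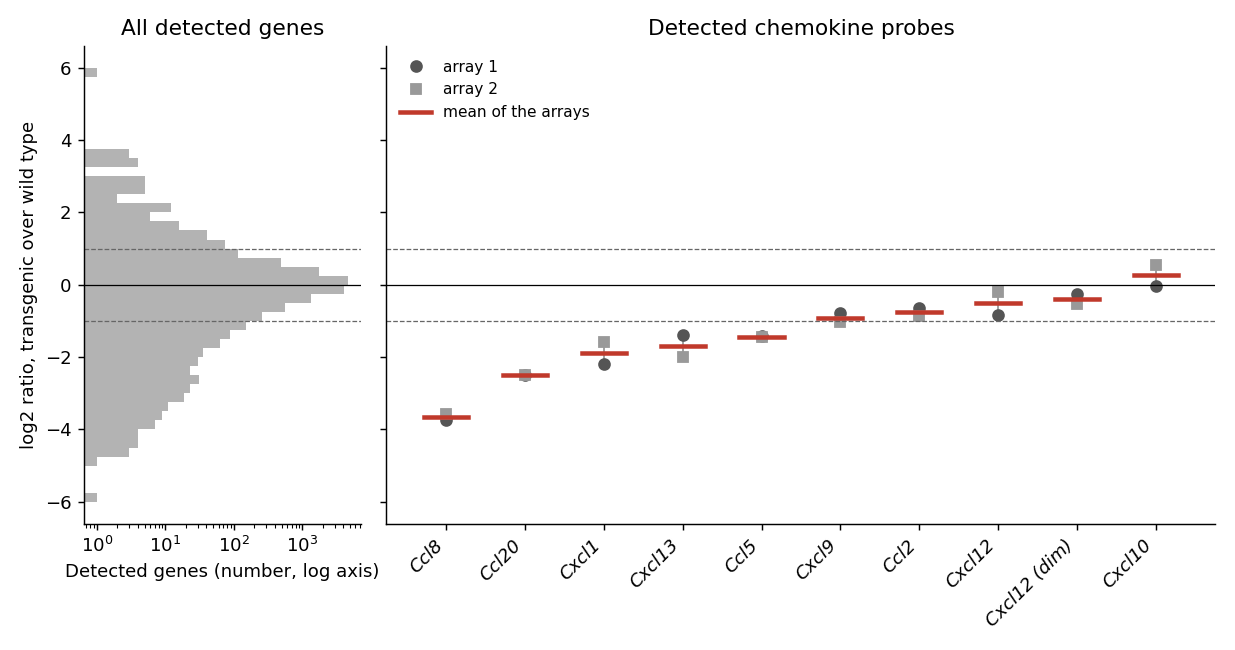
Left, the number of detected genes (log axis) by mean log2 ratio of transgenic over wild type. Right, the log2 ratio of each detected chemokine probe on array 1 (circles) and array 2 (squares) with the mean (red bar), and dashed lines at a ratio of 2-fold. Values run between -3.65 for Ccl8 and 0.26 for Cxcl10, and the arrays lie on opposite sides of 0 for Cxcl10.

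Outside the 10 genes, the wider chemokine system was lower more often than higher. Of 28 other chemokines 26 had a probe and 18 were detected, of which 6 were lower (Ccl4, Ccl6, Ccl12, Ccl19, Ccl28 and Cxcl16) and 0 higher, with a median of -0.73. Over all detected genes, 3.53% were lower and 1.09% higher. Ccl6, a murine CC chemokine of myeloid cells, was at -1.31 ± 0.29 with levels of 799 and 912 in the transgenic pool, against 2289 and 1958 in the wild-type pool. Under median centring its ratios were -0.41 on array 1 and -2.04 on array 2, and the call was lost. Cxcl16, a transmembrane chemokine for Cxcr6-bearing T cells, was at -1.01 ± 0.14, barely past the threshold. Its other detected probe gave -0.85, and its call was lost on array 1 alone (-0.91), without background subtraction (-0.90) and under median centring (-0.13 on array 1). Its receptor Cxcr6 was at -1.67 ± 0.16. The 4 detected ones with the smallest ratios were Ccl27a (-0.02), Ccl24 (-0.08), Ccl21a (-0.30) and Ccl25 (0.30). Among these 18, 3 lay above 0 on both arrays and 13 below 0 on both, against 24.6% and 27.3% of all detected genes.

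Among chemokine receptors, 4 of 10 detected genes were lower (Ccr2, Ccr6, Cxcr5 and Cxcr6), 0 were higher and the median was -0.81, while 8 of the 18 were not detected. For this list and the next 2, the shares of all detected genes were 3.53% lower and 1.09% higher. Of the 4 lower ones, Cxcr6 was the 1 that was above background in the 2 pools alike on each array. The list of inducing cytokines and their receptors had 1 of 12 lower, which was Ltb, with a median of -0.23. Tnf stood at -0.79 ± 0.0081 and did not pass. Il1b was not well above background in the transgenic pool and did not pass at -0.74 ± 0.02, and Il6 was not detected. Among 15 detected genes of the NF-kappaB and interferon axis 3 were lower (Tnfaip3, Relb and Irf1), with a median of -0.43. Tnfaip3, a feedback inhibitor of NF-kappaB, was at -1.36 ± 0.18 and Relb, a subunit of the noncanonical factor, at -1.24 ± 0.43, while the inhibitor Nfkbia was at 0.31 ± 0.02 and Rela at -0.10 ± 0.05.

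Of 9 detected genes that cut or bind chemokines, 1 was lower, 1 was higher and 7 did not pass. Over all detected genes, 3.53% were lower and 1.09% higher. Ctss, a lysosomal protease of antigen-presenting cells, was lower at -2.62 ± 0.61, and Anpep, an aminopeptidase of the cell surface, was higher at 1.39 ± 1.06, with 2.14 on array 1 and 0.63 on array 2. Under median centring Anpep was at 3.31 on array 1 and -0.29 on array 2, so its call was lost and the arrays differed in direction. Dpp4, which trims the amino end of several chemokines, did not pass at 0.63 ± 0.01, with 0.65 and 0.45 by its other probes. The median of this list was -0.36.

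**Figure D3:**
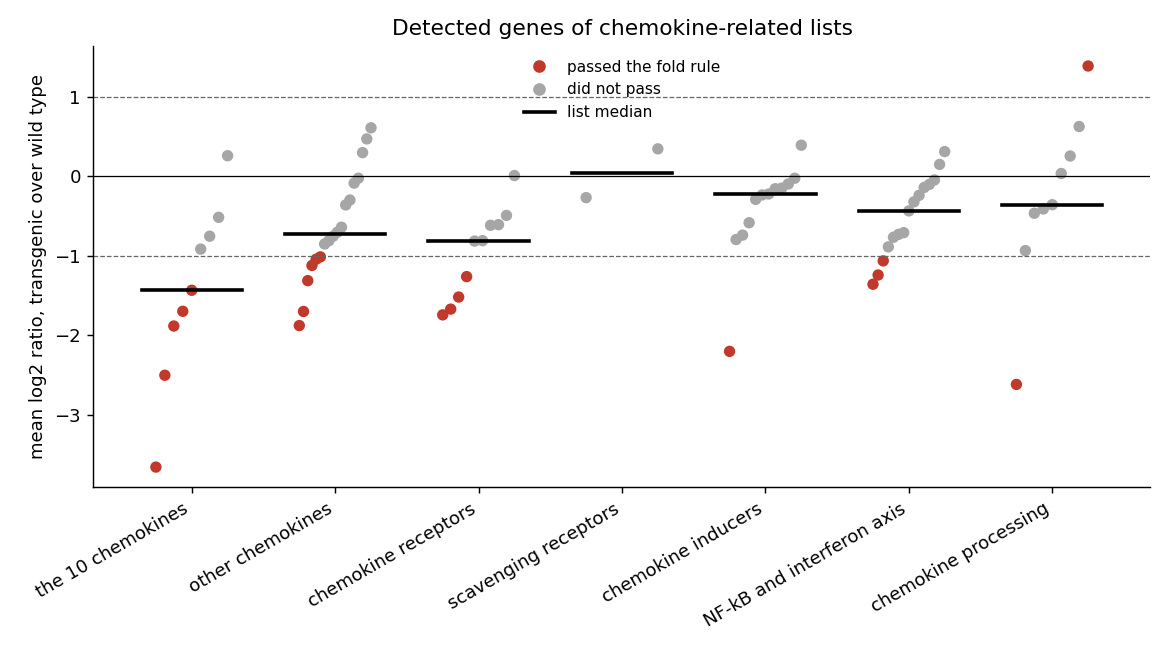
Mean log2 ratio of transgenic over wild type for each detected gene of 7 lists, in red where the fold rule was passed, with the list median as a black bar and dashed lines at 2-fold. The 10 chemokines (9 detected) have a median of -1.43 and the other chemokines -0.73, and Anpep, at 1.39, is the 1 gene above the upper line.

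The markers of leukocytes, the cells that make several of these chemokines and bear their receptors, were lower in the same pool. Of 59 genes in 6 leukocyte lists 28 were detected, of which 18 were lower and 0 higher, with a median of -1.39. Over all detected genes, 3.53% were lower and 1.09% higher. By list, 6 of 8 detected B and plasma cell genes, 5 of 7 T and NK cell genes, 6 of 10 monocyte and macrophage genes, 1 of 2 neutrophil genes and 0 of 1 dendritic cell genes were lower. The summed level of the B and plasma cell genes was 2210 to 2460 in the transgenic pool and 22152 to 25135 in the wild-type pool. It was largely that of Jchain, at -3.54 ± 0.15. For T and NK cells it was 735 to 1000 in the transgenic pool and 1900 to 2094 in the wild-type pool, for monocytes and macrophages 17775 to 23243 and, in the wild-type pool, 27580 to 31671 (largely Ly6c2, at -0.29 ± 0.53), and for neutrophils 157 to 216 and, in the wild-type pool, 563 to 908. Cd4, Cd8a, Itgam, Pax5 and all 7 eosinophil and mast cell genes with a probe were not detected. Of the epithelial and tissue markers, all 7 ventral prostate genes and all 6 luminal genes were detected. The ventral prostate genes summed to 329331 to 506415 in the transgenic pool and 889372 to 1165805 in the wild-type pool, and 2 of them were lower (Sbp and Spink1). Under median centring Sbp was at -0.35 on array 1 and -1.59 on array 2, and its call was lost. The luminal genes summed to 75907 on array 1 and 88526 on array 2 in the transgenic pool. The wild-type sums were 78865 and 68191, so the arrays differed in direction. Among stromal and basal markers, 2 of 6 fibroblast genes were lower (Col3a1 and Lum, neither under median centring), 5 of the 6 lay below 0 on both arrays and the median was -0.91. The fibroblast genes summed to 14052 on array 1 and 8466 on array 2 in the transgenic pool, against 14566 and 34647 in the wild-type pool. These sums were largely Dcn, at 0.13 on array 1 and -2.27 on array 2. None of the 4 basal or 5 smooth muscle genes passed (0 of each), with 4 of each below 0 on both arrays and medians of -0.45 and -0.30. Basal genes summed to 4707 to 5076 in the transgenic pool and 6321 to 7036 in the wild-type pool. Those of smooth muscle summed to 29098 on array 1 and 23255 on array 2 in the transgenic pool. The wild-type sums were 28280 and 43448, so the arrays differed in direction. The 1 detected endothelial gene of 5 did not pass. The part of the leukocyte, stromal and prostate markers in the chemokine differences was not tested.

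**Figure D4:**
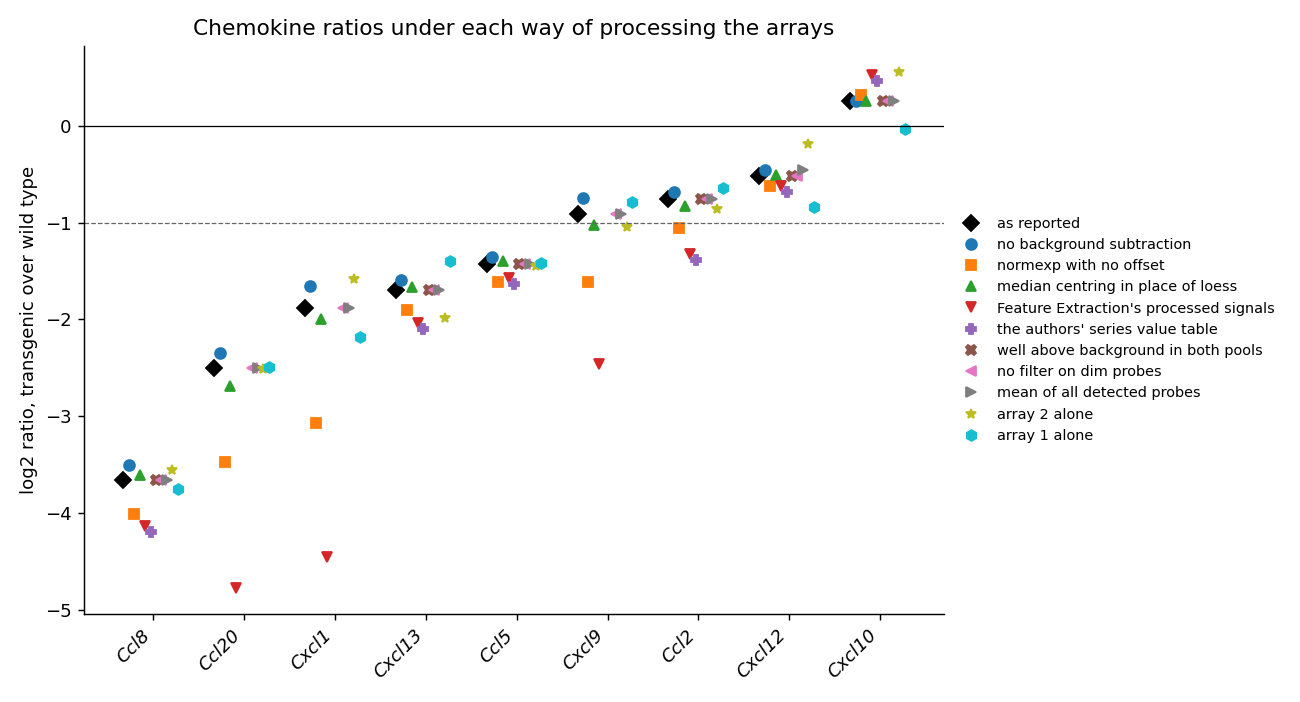
The log2 ratio of transgenic over wild type of each detected chemokine as reported (black diamonds) and under 10 other ways of processing the arrays, with a dashed line at 2-fold lower. Ccl20, Cxcl1 and Cxcl9, whose transgenic signal was well above background on 1 array, spread the widest, with Ccl20 between -2.35 and -4.77, while Ccl5 stayed between -1.35 and -1.64.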

How the data were processed

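Labelling took 100 ng of RNA per pool (Agilent's Low Input Quick Amp kit), per the labels. The arrays, annotated on mm9, were processed in Agilent Feature Extraction 11.0.1.1, per the file headers. The deposited files give median intensity per spot and dye with no normalization, background-subtracted and dye-normalized intensities, and their log10 ratio of red over green. The deposited series table holds a log2 ratio, found to be transgenic over wild type by its correlation of 1.00 with the scanner ratios. Its column medians are 0, and no source used here states its probe filter.

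Median intensities were corrected with normexp (offset 50) and normalized by loess in limma 3.58.1 (R 4.3.3), with control and outlier spots at weight 0. No spot was saturated (0 spots). Spots of a probe were averaged, ratios were turned by the dyes in the labels, and levels were further scaled by Aquantile between arrays. A gene was represented by its brightest detected probe. Symbols came from RefSeq (GRCm38.p6) by accession, with 27816 of 41174 probes matched. The number of arrays limits the precision. The method was tested on simulated data. Members, lists and rules were chosen with earlier results of these data known. Named genes are all members and their receptors, up to 6 called genes per list, and the 4 other chemokines with the smallest ratios. Relatives, neighbours and cytokines named beyond this rule were chosen after their values were seen. Both arrays lay on 1 slide. Some genes of the receptor and interferon lists are not reported here.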

Additional observations from a re-analysis of the deposited data

How the results depend on the processing

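Of the 5 chemokines called lower, Ccl8 passed under all 10 other ways of making a ratio, and Ccl20 and Cxcl1 under each of the 8 that measured them, while Ccl5 and Cxcl13 lost the call under median centring (-1.39 and -1.66). Requiring both pools well above background left 3 chemokines lower (Ccl8, Ccl5 and Cxcl13), with 3 of the other chemokines, 1 receptor and 267 genes lower. Without the offset 770 genes were lower, under median centring 99 were higher, and with Feature Extraction's signals 938 were lower and 309 higher, with 8 receptors lower. The authors' deposited values gave 2 lower receptors. On single arrays (array 1 or array 2 alone) between 5 and 6 of the 10 chemokines, 6 of the other chemokines on either, and 2 to 5 receptors were lower, with 589 to 599 genes lower and 271 to 450 higher. Array 2 alone left Ccl4 (-0.85), Relb (-0.94), Sbp (-0.96) and Anpep (0.63) uncalled, besides the losses given above. Array 2 alone and median centring each left 15 of the 18 leukocyte markers lower. Requiring both pools well above background left 10 of the 18 lower and 8 not measured, as did the authors' deposited values. Taking a mean of 1.5-fold with the same sign on both arrays gave 1077 genes lower and 472 higher, with 11 other chemokines and 7 receptors lower. The sign of each detected chemokine held throughout, except Cxcl10, at -0.04 on array 1 alone and 0.56 on array 2. Cause was not tested for any of these. No paired analysis was possible because the arrays repeat 1 pair of pools. Signals near background limit Ccl20, Cxcl1, Cxcl5 and Cxcl9.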
